A study of Mus musculus with 2 samples.

Results

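Among immune cells that had entered the inflamed mouse colon, 237 of 14080 retained cells carried T cell CD3 transcripts together with Ikzf2 and Cd7 and had no transcript of the CD4 or CD8 coreceptors. They numbered 193 of 11155 cells in the library labelled CKO and 44 of 2925 cells in the library labelled WT. The cells were chosen by their counts of unique molecular identifiers (UMIs, each standing for 1 captured transcript). A cell had at least 2 UMIs over Cd3d, Cd3e and Cd3g and at least 2 over Ikzf2 and Cd7. It had 0 over Cd79a and Ms4a1, Cd8a and Cd8b1, Cd4 and Cd40lg, Lef1, Foxp3, and Cd163l1, Trdv4 and Il17a. Ikzf2, Cd7 and the coreceptors are therefore the rule and not findings, and they are given below without a test.

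The study profiled colon-infiltrating immune cells of C57BL/6 mice with colitis brought on experimentally by droplet-based 3' single-cell RNA sequencing. The CKO group was 1 library from mice labelled CKO, in a study of T cells that have lost RPA1, a subunit of the replication protein A complex that coats single-stranded DNA, and the WT group was 1 library from mice labelled WT. The sources used here do not give the driver of the deletion, the agent that induced colitis, the age of the animals or the number pooled. A single library stood for each group, so the differences have no replicate check and no test was made, and genotype, animals, cell preparation and library cannot be told apart. Intervals are 95% intervals (exact for sums, Clopper-Pearson for shares, conditional for ratios) and cover counting error only. Fewer UMIs of a gene in a summed population can come from fewer cells with it or from less per cell, so shares of cells are given beside levels.

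Ikzf2 encodes Helios, a zinc finger transcription factor of regulatory T cells and of T cells selected by strong self-recognition in the thymus. CD7 is an immunoglobulin superfamily molecule of T and NK cells. In the gut, T cells without CD4 and CD8 alpha-beta coreceptors are found among the natural intraepithelial lymphocytes, a group with gamma-delta and alpha-beta members that lives in or near the epithelium and carries receptors otherwise known from NK cells. Such cells are known to signal partly through the ITAM adaptors FcR-gamma (Fcer1g) and DAP12 (Tyrobp) beside the CD3 chains. XCL1 is a chemokine that attracts cross-presenting dendritic cells, and CD160 is a receptor for HVEM and for MHC class I molecules.

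The 4 genes that give the cells their name were all present. Ikzf2 had a UMI in 96.9% of CKO cells and 95.3% of WT cells, and Cd7 in 80.9% and 79.1%, after 32 droplets described below were left out. Of the markers that the rule did not use, Xcl1 was found in 69.1% of CKO cells and 79.1% of WT cells, and Cd160 in 37.0% and 53.5%. B cells, which should lack these genes, had a UMI of Xcl1 in 1.17% of CKO cells and 1.46% of WT cells, and of Cd160 in 0.241% and 0.200%, at median depths of 3230.5 and 4352 UMIs. The T cell name held less evenly. In the cells without a UMI of either Trdc or Trac, the constant genes of the delta and alpha receptor chains, Cd3g carried the CD3 count: it was found in 91.3% of 46 CKO cells and 88.9% of 9 WT cells, whereas Cd3d was found in 54.3% and 66.7%, and Cd3e in 34.8% and 55.6%.

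At the edge of the rule, 22 CKO cells and 3 WT cells had exactly 2 UMIs of Ikzf2 and Cd7, and 28 CKO cells and 7 WT cells with 1 such UMI fell just outside. Xcl1 stood at 720.1 counts per 1000000 UMIs (CPM) in the CKO cells just inside and 764 CPM in those just outside, Klrd1 at 177 and 158 CPM, and Kit at 129 and 110.1 CPM. Trdc, at 169.8 CPM just inside and 55.0 CPM just outside, and Fcer1g, at 1508 and 743 CPM, differed more across the edge in CKO. All these edge values include the droplets with myeloid transcripts described below. Several CKO cells just inside were such droplets, among them 1 with 142 myeloid, 34 Fcer1g and 3 Trdc UMIs. Most of the Trdc and Fcer1g UMIs of the CKO cells just inside lay in such droplets, and nearly none of their Xcl1 UMIs did. The Trdc and Fcer1g differences across the edge, and the closeness of the Xcl1 values, therefore depend on these droplets. Cells with 3 to 5 UMIs had Xcl1 at 258 CPM in CKO, and the WT members with 2 to 5 UMIs had Xcl1 and Cd160 at 0. Most members were far from the edge, with 6 or more such UMIs in 142 CKO cells and 39 WT cells. The lack of coreceptor depends on depth as well. Cells that met the same rule but held a Cd8a or Cd8b1 UMI numbered 96 in CKO and 43 in WT. They had a median of 3 Cd8 UMIs in CKO and 2 in WT, and 17.7% of them in CKO and 30.2% in WT had a single one. How many members lacked a Cd8 UMI through limited depth alone cannot be read from these cells, which were chosen for having one.

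Rpa1 (chromosome 11, 75298166 to 75348324), the gene of the study, had 53 UMIs (66.1 CPM) in CKO members and 9 UMIs (31.2 CPM) in WT members once the droplets described next were left out (log2 CKO over WT 1.08, 0.05 to 2.29). It was found in 25.9% of CKO members and 18.6% of WT members, so its transcript was not lower in the library labelled CKO. Whether the counted 3' end lies outside the deleted part is not given in the labels, so this count neither checks nor contradicts the label. Rpa2, another subunit, had 28 UMIs in CKO and 3 in WT members.

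The members held 1228791 UMIs in the CKO library and 297704 in the WT library, with medians of 4677 and 5727 UMIs and 1634 and 1821 genes per cell. The libraries shared 6 cell barcodes, of which 1 was that of a member. A group of droplets stood apart. In 31 of 193 CKO members (16.1%, interval 11.2 to 22%) and 1 of 44 WT members (2.27%, 0.0575 to 12%), 11 genes of macrophages, monocytes and neutrophils (Lyz2, Cd14, Csf1r, C1qa, C1qb, C1qc, Adgre1, Ms4a7, Csf3r, Retnlg, Cxcr2) summed to 10 UMIs or more. No CKO member lay between 4 and 22 such UMIs, and no WT member between 1 and 13. The 31 CKO droplets had a median of 12803 UMIs, against 4275 UMIs in the other CKO members, and held 34.7% of the CKO members' UMIs. They carry transcripts of both a T cell and a myeloid cell. The threshold of 10 UMIs was chosen after the data were seen, and each comparison below is given without these 32 droplets, leaving 162 CKO and 43 WT cells, with the value over all members beside it where it differs in kind.

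**Figure D1:**
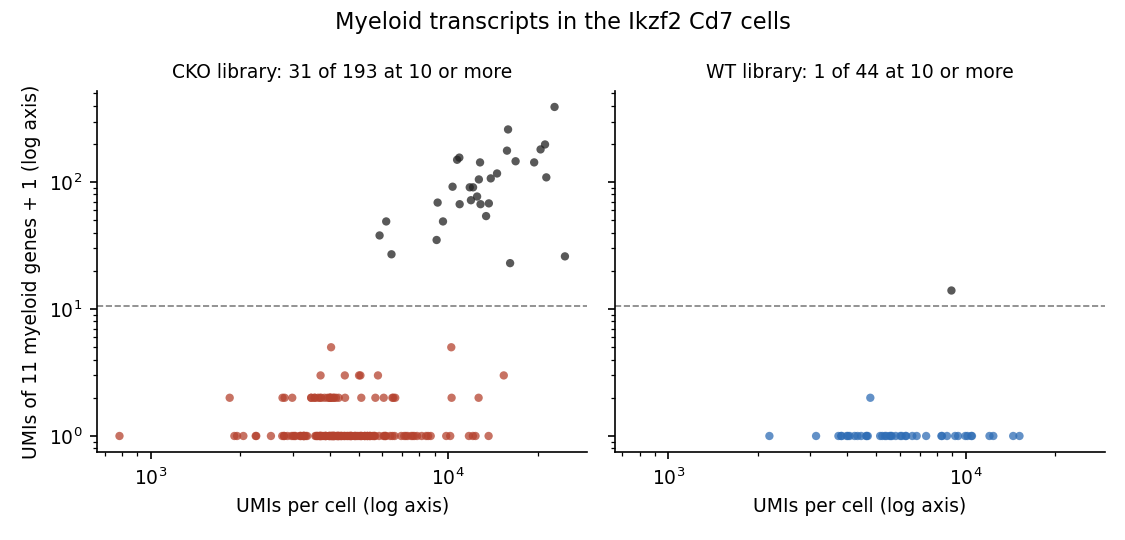
Each point is 1 Ikzf2 Cd7 cell, with its UMIs on the horizontal log axis and its UMIs of 11 myeloid genes plus 1 on the vertical log axis, the CKO library at left and the WT library at right. Black points above the dashed line at 10 UMIs are the 31 CKO cells and the 1 WT cell set apart, and they are separated from the remaining cells by an empty band.

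Which T cell receptor the cells transcribe was read from the constant genes, which the rule did not use. Trdc, encoding the delta chain (chromosome 14, 54142851 to 54148868, GRCm38), without Trac, encoding the alpha chain (chromosome 14, 54220521 to 54224206), was found in 76 of 162 CKO members (46.9%, 39.0 to 54.9%) and in 7 of 43 WT members (16.3%, 6.81 to 30.7%). Trac without Trdc was found in 18 CKO members (11.1%, 6.72 to 17%) and 22 WT members (51.2%, 35.5 to 66.7%). The intervals of the 2 libraries did not overlap for either class. Both transcripts occurred together in 13.6% and 11.6%, and neither in 28.4% of CKO members and 20.9% of WT members. Over all members, droplets with myeloid transcripts included, Trdc without Trac made up 48.7% in CKO and 15.9% in WT.

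The order of the libraries was the same after each cell was thinned to 1000 UMIs, when Trdc was found in 26.7% of CKO members and 6.98% of WT members and Trac in 4.97% and 20.9%. A similar shift was present in the other T cells, where Trdc without Trac was found in 25.5% of 506 CKO cells and 6.73% of 327 WT cells, and Trac without Trdc in 36.8% and 70.6%, so the difference was not confined to the Ikzf2 Cd7 cells. In NK cells, which rearrange neither gene, Trdc without Trac was found in 12.3% of 227 CKO cells and 15% of 20 WT cells. That share lies inside the interval of the WT members and below that of the CKO members. Trdc together with a gamma constant gene was found in 48.1% of CKO members and 23.3% of WT members, against 0.881% and 5% of NK cells.

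The gamma constant genes followed Trdc. Tcrg-C1 stood at 148 CPM in CKO members and 48.5 CPM in WT members (log2 ratio 1.61, 0.81 to 2.53), Tcrg-C4 at 157 and 58.9 CPM (1.42, 0.68 to 2.24), and Tcrg-C2 at 82.3 and 41.6 CPM (0.99, 0.09 to 2.01). Trdc itself stood at 371 CPM in CKO and 139 CPM in WT members (1.42, 0.94 to 1.94), and Trac at 91.0 and 274 CPM (-1.59, -2.07 to -1.11). The beta constant genes did not separate the classes: a Trbc1 or Trbc2 UMI was found in 95.7% of CKO members and 97.7% of WT members, but also in 91.2% and 95% of NK cells. Variable segments, read over all members, were too thin to place the cells in a gamma-delta subset. Trgv2 led with 45 UMIs in 35 CKO cells and 10 UMIs in 7 WT cells, and Tcrg-V1 followed with 15 and 0 UMIs.

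**Figure D2:**
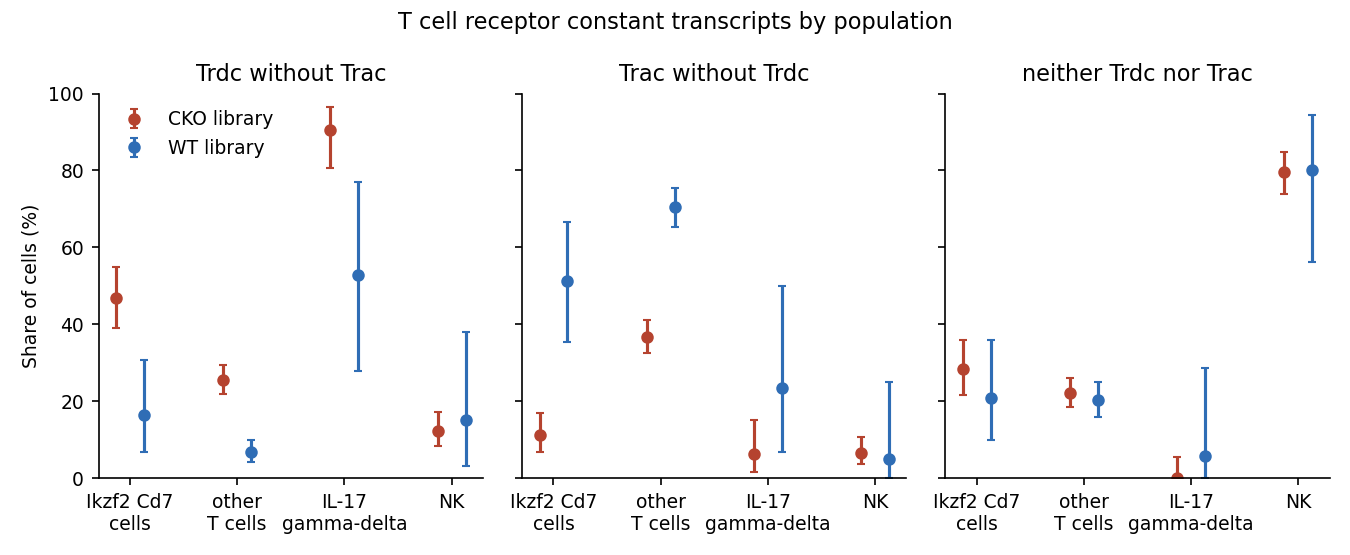
Share of cells (vertical axis, percent) with Trdc and no Trac, Trac and no Trdc, or neither, in Ikzf2 Cd7 cells, other T cells, IL-17 gamma-delta cells and NK cells, all without myeloid-bearing droplets, with CKO points left of WT points and bars for 95% Clopper-Pearson intervals. Ikzf2 Cd7 cells of the CKO library are at 46.9% for Trdc without Trac and those of the WT library at 16.3%, while Trac without Trdc is at 11.1% and 51.2%. The IL-17 gamma-delta cells were chosen by UMIs of Cd163l1, Trdv4 and Il17a, and the NK cells by those of Ncr1 and Klrb1c without Cd3 UMIs.

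The cells were next set against the other T cells of the same library, as a description, since the rule shaped this contrast. The other T cells include the cells with Lef1, Foxp3, Cd4, Cd8 or Il17a that the rule removed. The genes named are the 12 with the largest and the 12 with the smallest difference that held in both libraries. The higher genes were Klra7, Klra6, Xcl1, Trf, Klre1, Zbtb10, Klra5, Kit, Spry2, Il12rb2, Klrd1 and Car2, with log2 differences between 1.32 and 4.27. Xcl1 stood at 1164 CPM in CKO members and 319.6 CPM in other CKO T cells, and at 1216 CPM in WT members and 128 CPM in other WT T cells. Over all members Trf and Il12rb2 gave way to Cd160 and Sft2d2 among the 12.

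NK receptors were the list with the most members higher in both libraries. Of 16 genes of that list with enough counts, 9 were at least 2-fold higher in both libraries and 0 were lower, where 0.884% of 7129 genes were higher and 2.40% lower. The count was also 9 of 16 over all members, where 0.694% of 7496 genes were higher. The 9 were Klra1, Klra5, Klra6 and Klra7 of the Ly49 family, Klrd1 (CD94), its partner Klrc2, Klre1, Klrb1c (NK1.1) and Crtam. Klrd1 was found in 72.8% of CKO members and 29.8% of other CKO T cells, and in 69.8% of WT members and 21.4% of other WT T cells. Klra5 (chromosome 6, 129898996 to 129917650), which encodes Ly49E, stood at 157 and 52.9 CPM in the CKO library and 104 and 5.39 CPM in the WT library. Klra7 stood at 111 CPM in CKO members against 22.9 CPM in other CKO T cells, and at 163 CPM in WT members against 26.4 CPM in other WT T cells. The Ly49 genes lie side by side on chromosome 6 and are near-identical, so reads may be split among them and single members are uncertain.

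Kit, the receptor for stem cell factor (chromosome 5, 75574916 to 75656722), was found in 56.2% of CKO members and 21.5% of other CKO T cells, and in 46.5% of WT members and 15% of other WT T cells. Its level was 312 and 82.8 CPM in the CKO library and 166 and 59.8 CPM in the WT library. Kit also marks mast cells, whose other markers were nearly absent: Fcer1a, Gata2, Mcpt8 and Prss34 were at 0 in both libraries, and Cpa3, Mcpt1 or Mcpt2 was found in 9 of 162 CKO members and 1 of 43 WT members, with at most 2 UMIs per cell. B cells had a Kit UMI in 1.69% in CKO and 1.73% in WT.

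The adaptors through which NK receptors signal were higher in part. Of 4 genes with enough counts Fcer1g and Lyn passed 2-fold in both libraries, where 0.884% of all genes did. Over all members 0 of 6 did, where 0.694% of all genes did. Fcer1g (FcR-gamma) stood at 798 CPM in CKO members and 389.6 CPM in other CKO T cells, and at 533 CPM in WT members and 102 CPM in other WT T cells. It was found in 75.9% of CKO members and 72.1% of WT members, against 13.7% and 10.8% of B cells. Tyrobp (DAP12) was at 538 and 311 CPM in the CKO library and at 312 and 53.3 CPM in the WT library. Lyn, a Src family kinase, was at 151 and 61.4 CPM in CKO and at 114 and 28.5 CPM in WT, whereas Syk was at 8 UMIs in CKO members and 3 in WT members. Fcer1g and Tyrobp are also expressed by myeloid cells, and the monocyte and macrophage list in the same cells summed to 64.8 CPM in CKO and 24.2 CPM in WT, with Adgre1 and Nos2 at 0 in both.

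The 12 lower genes were Iigp1, Tnfrsf4, Ly6c1, Cd6, S1pr1, Cpm, Smox, Actn2, Fam169b, Ccr7, Lat and Irf4. Tnfrsf4, which encodes the costimulatory receptor OX40, was at 27.4 CPM in CKO members and 159.8 CPM in other CKO T cells, and had 0 UMIs in WT members against 168 CPM in other WT T cells. Irf4, a factor induced by strong receptor signals, was at 8.72 and 31.1 CPM in CKO and at 10.4 and 40.4 CPM in WT. Iigp1, an interferon-inducible GTPase, was at 13.7 and 81.7 CPM in CKO and 13.9 and 142 CPM in WT. Regulatory and activated CD4 T cells, which the rule removed from the members, are known sources of Tnfrsf4.

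Some genes of conventional T cell receptor signalling were lower. Of 20 such genes, 5 were at least 2-fold lower in both libraries and 0 higher, where 2.40% of all genes were lower. The count was the same over all members, where 1.33% of genes were lower. The list medians, -0.12 in CKO and -0.15 in WT, were close to 0. Lat, the adaptor that links the receptor to downstream kinases, was at 52.3 CPM in CKO members and 194 CPM in other CKO T cells, and at 48.5 CPM in WT members and 189.6 CPM in other WT T cells. It was found in 17.3% of CKO and 16.3% of WT members, against 47.6% and 49.8% of other T cells. Cd6 was at 22.4 and 125 CPM in CKO and 10.4 and 123 CPM in WT, and Cd5, a negative regulator of receptor signals, at 15 and 88.3 CPM in CKO and 27.7 and 84.0 CPM in WT. Themis and Ubash3a were the remaining pair. The CD5 and CD6 transcripts lay mainly in members with Trac: Cd6 had 14 UMIs in the 18 CKO cells with Trac alone and 4 in the 76 with Trdc alone, and Cd5 had 9 and 1.

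Genes of migration and of naive or central memory T cells were lower as well, including Ccr7, the lymph node homing receptor, at 48.6 and 181 CPM in CKO and 24.2 and 310.3 CPM in WT, and S1pr1, which guides exit from tissue, at 18.7 and 83.6 CPM in CKO and 34.6 and 179 CPM in WT. Of 15 naive and central memory genes 7 were lower and 0 higher, where 2.40% of all genes were lower (5 of 15 over all members, where 1.33% were), and the rule's exclusion of Lef1 bears on this list. Of the 23 natural intraepithelial lymphocyte genes, 6 were higher (Xcl1, Cd244a, Tbx21, Lag3, Cd160, Ahr) and 0 lower, where 0.884% of all genes were higher. Over all members 4 of 23 were higher, where 0.694% were. Tbx21 encodes T-bet and Ahr the aryl hydrocarbon receptor. Itgae, the CD103 integrin chain that binds E-cadherin, was at 143 CPM in CKO members and 112 CPM in other CKO T cells, and at 104 and 49.0 CPM in WT. Cdh1, E-cadherin itself, was at 53.6 and 16.7 CPM in CKO and 38.1 and 8.62 CPM in WT, and Epcam at 51.1 and 15.2 CPM in CKO and 31.2 and 13.5 CPM in WT. Of 10 epithelial marker genes 6 had a UMI in CKO members and 2 in WT members: beside Cdh1 and Epcam, Reg3b had 14 UMIs in CKO, Krt18 and Reg3g 3 each and Lgals4 1, while Krt8, Krt19, Phgr1 and Muc2 were at 0 in both libraries. The part of epithelial transcripts in the Cdh1 and Epcam levels was not tested.

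**Figure D3:**
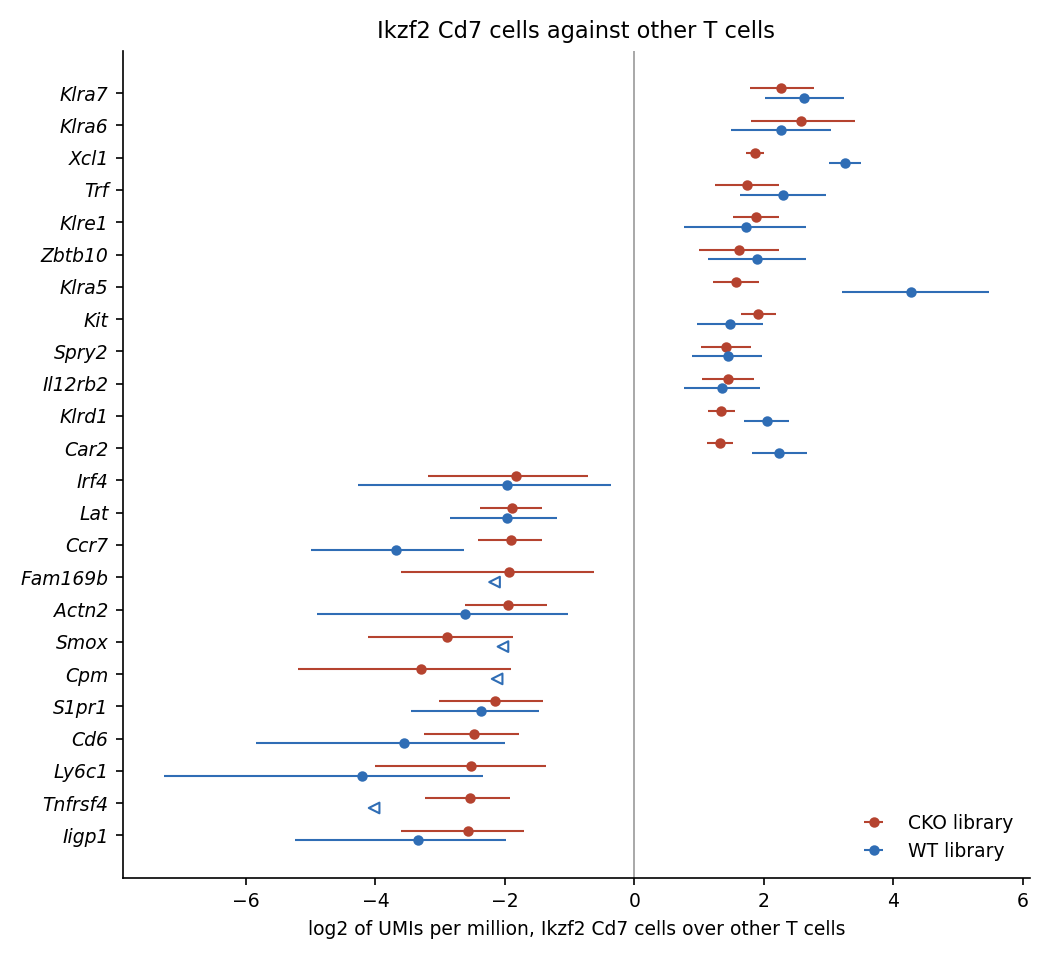
Log2 ratio of CPM in Ikzf2 Cd7 cells over other T cells of the same library (horizontal axis) for 24 genes named by rule, CKO above WT in each row, with 95% intervals, and myeloid-bearing droplets left out on both sides. Hollow triangles are bounds at 3 UMIs where the WT cells had 0, and every gene lies on the same side of 0 in both libraries because the rule for naming required it.

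Further comparisons set the cells beside other lymphocytes of the same library. Against NK cells, genes of mature NK cells were lower: Eomes, a T-box factor of NK cells, was at 6.23 CPM in CKO members and 200.4 CPM in CKO NK cells, and at 31.2 and 363 CPM in WT. Prf1 (perforin) was at 97.2 and 916 CPM in CKO and 10.4 and 1010.5 CPM in WT. The NK cells were chosen for at least 2 UMIs over Ncr1 and Klrb1c and 0 over the Cd3 genes and over Cd79a and Ms4a1. Lower Ncr1 and Klrb1c in members was therefore favoured by that choice and is not a finding. Klrb1c was at 63.6 and 456 CPM in CKO and 27.7 and 434 CPM in WT. Of 10 NK cell markers, a list that holds Ncr1 and Klrb1c, 9 were at least 2-fold lower in both libraries, where 2.94% of 2683 genes were. Over all members 10 of 10 were, where 2.32% of genes were. Only 20 WT NK cells were available. Ramp3, a receptor activity modifying protein, was higher, at 270.5 CPM in CKO members and 34.0 CPM in CKO NK cells, and at 388 CPM in WT members and 0 UMIs in WT NK cells. Ncr1, Eomes, Klra8 or Klra4 was nonetheless found in 22 of 162 CKO members (13.6%) and 5 of 43 WT members (11.6%).

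Against IL-17 gamma-delta cells, Il22 was at 15 CPM in CKO members and 2788 CPM in that population of the CKO library, and at 10.4 and 994 CPM in WT. Ccr2 was at 66.1 and 654 CPM in CKO and 45.0 and 909.8 CPM in WT. Xcl1 ran the other way, at 1164 and 38.6 CPM in CKO and 1216 and 12 CPM in WT. Over all CKO members Il22 had 166 UMIs, but 152 of them came from 1 cell, and 12 UMIs remained once the droplets with myeloid transcripts were left out. The rule excluded Cd163l1, Trdv4 and Il17a, and the IL-17 gamma-delta cells were chosen for at least 2 UMIs over these same genes. That choice shaped this contrast and the share of Trdc in that population.

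Against CD8 alpha-beta T cells, of which only 16 CKO cells and 24 WT cells were available, Tyrobp was at 538 CPM in CKO members and 8.69 CPM in CKO CD8 cells, and Gzmb (granzyme B) at 707 and 1999 CPM. In the WT library Gzmb was at 256 CPM in members and 2672 CPM in CD8 cells. Against the cells that differ from the members in the Cd8a or Cd8b1 UMI alone, 0.817% of 3305 genes were at least 2-fold higher and 0.393% lower in both libraries. Of 13 cytotoxic genes, Gzma and Gzmb were lower and Gzmc higher. Gzmc, another granzyme, had 111 UMIs (138 CPM) in CKO members and 6 UMIs (12.9 CPM) in CKO cells with a Cd8 UMI, and 22 and 2 UMIs in WT. Gzma was at 2336 CPM in CKO members and 9378 CPM in CKO cells with a Cd8 UMI, and at 301 and 2462 CPM in WT. Gzmb was at 707 and 2131 CPM in CKO and 256 and 806 CPM in WT. Higher genes included the NKG2D receptor Klrk1, at 136 and 58.2 CPM in CKO and 239 and 74.1 CPM in WT, and Il7r, the IL-7 receptor, at 109.7 and 21.5 CPM in CKO and 159 and 47.9 CPM in WT. Klrd1 hardly differed, at 442 and 392 CPM in CKO and 412 and 392 CPM in WT.

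Members made up 162 of 668 CKO T cells (24.3%, 21 to 27.7%) and 43 of 370 WT T cells (11.6%, 8.54 to 15.3%) without myeloid-bearing droplets. With those droplets they were 22.8% (20 to 25.8%) of 845 CKO T cells and 11.4% (8.41 to 15%) of 386 WT T cells. Of all retained cells, droplets included, they were 1.73% in CKO and 1.5% in WT, with overlapping intervals (1.5 to 1.99% and 1.10 to 2.01%), and T cells as a whole were 7.58% and 13.2%. The share among T cells therefore differed while the share among all cells did not differ beyond counting error.

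Between the libraries, 160 genes were at least 2-fold higher in CKO members and 34 at least 2-fold lower, 5.52% and 1.17% of 2900 genes with 50 or more UMIs. Over all members the counts were 437 (11.2%) and 52 (1.33%) of 3917 genes at 2-fold, and 19.9% and 8.81% at 1.5-fold, so the 32 droplets with myeloid transcripts carried much of the excess. Of the 12 genes with the largest CKO over WT ratios over all members, Chil3, Cd14, Thbs1, Ccl3, Slc7a11, Lyz2, Ifitm3, H2-Eb1, Lgmn, Fcgr3 and Nlrp3 had between 81.2 and 99.3% of their UMIs in those droplets, and Ifng had 2.18%. In the other T cells without such droplets, 4.12% of 6788 genes were higher and 1.30% lower.

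Some transcripts of other cells remained after those droplets were left out. The neutrophil list, mainly S100a8 and S100a9, summed to 247 CPM in CKO members and 24.2 CPM in WT members, with Cxcr2 and Ngp at 0 in both, and the B cell list, mainly Cd74 and H2-Aa, to 678 and 225 CPM. The NK cell list summed to 2909 CPM in CKO and 720.3 CPM in WT members, with 10 of 10 and 9 of 10 genes found, Klra8 being at 0 in WT. Gzma, described below, made up most of the CKO sum, and the other 9 genes summed to 573 CPM in CKO and 419 CPM in WT members. Group 2 innate lymphocyte genes summed to 196 CPM in CKO and 772 CPM in WT members. The part of these transcripts in the results below was not tested.

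The marker Xcl1 did not differ beyond counting error between CKO and WT members, at 1164 and 1216 CPM (log2 ratio -0.06, -0.24 to 0.12), and neither did Klrd1, at 442 and 412 CPM (0.10, -0.20 to 0.41), or Cd160, at 132 and 173 CPM (-0.39, -0.89 to 0.12). These intervals leave room for differences up to their bounds. They are for all receptor classes together, and within single classes Xcl1 and Klrd1 did differ, as given below. Kit was at 312 CPM in CKO members and 166 CPM in WT members (0.91, 0.46 to 1.38).

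The largest CKO over WT ratio among the named genes was that of Ifng, the cytokine interferon-gamma (chromosome 10, 118441046 to 118445892), at 1943 CPM in CKO members and 34.6 CPM in WT members (log2 ratio 5.81, 4.93 to 6.87). It was found in 39 of 162 CKO members (24.1%) and 3 of 43 WT members (6.98%), with 1559 and 10 UMIs. A few cells held most of it: 5 CKO cells had 73.2% of the UMIs, the top cell 465, and the median CKO cell with Ifng had 4. The share of cells after thinning to 1000 UMIs was 13% (8.26 to 19.2%) in CKO and 2.33% (0.0589 to 12.3%) in WT, and these intervals overlap. B cells had an Ifng UMI in 2.61% in CKO and 1.60% in WT. The other T cells had a log2 ratio of 4.35, so the difference was not particular to the Ikzf2 Cd7 cells.

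Cytotoxic effector genes were higher in part. Of 17 genes, 6 were at least 2-fold higher in CKO members and 0 lower, with a list median log2 ratio of 0.72, against 9.13% higher and 2.91% lower and a median of 0.05 over 5430 genes with 20 or more UMIs. Over all members 7 of 17 were higher and 0 lower, where 13.7% of 6519 genes were higher and 3.64% lower. Gzma (granzyme A) was at 2336 CPM in CKO members and 301 CPM in WT members (log2 2.95, 2.64 to 3.28), and was found in 25.9% and 18.6%. In WT 1 cell held 75 of the 87 Gzma UMIs, so the WT level rests on that cell. Of the 1874 CKO UMIs of Gzma, 982 lay in members with neither Trdc nor Trac, a class described below. Over all members the log2 ratio was 2.42, and without each library's top cell it was 5.04. Prf1 had 78 UMIs in CKO and 3 in WT members (3.23, 1.63 to 5.53), Gzmb 567 and 74 UMIs (1.46, 1.11 to 1.83), and Nkg7, a granule membrane protein, 923 and 135 UMIs (1.30, 1.04 to 1.57). The chemokine Ccl5 was at 4881 CPM in CKO and 2144 CPM in WT members (1.19, 1.06 to 1.31), while 19 of the 20 WT UMIs of Ccl4 lay in 1 cell. In the other T cells without myeloid-bearing droplets, 6 of 18 cytotoxic genes were higher, where 5.94% of 8963 genes were higher and 2.83% lower.

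**Figure D4:**
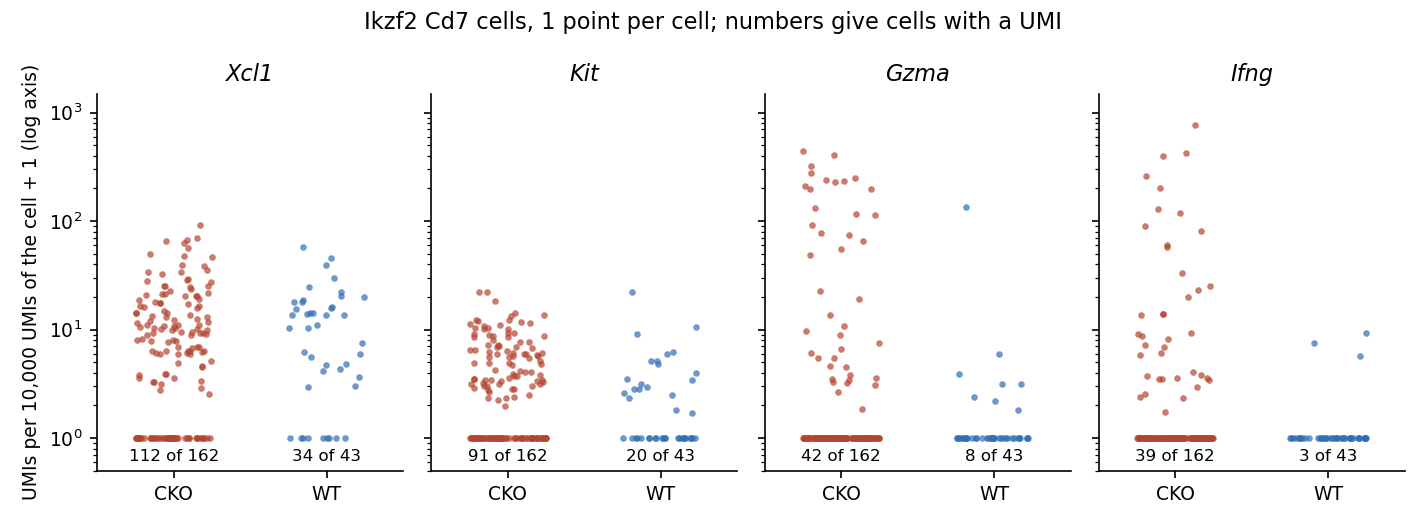
UMIs of Xcl1, Kit, Gzma and Ifng scaled to equal depth per cell, plus 1 (vertical log axis), 1 point per Ikzf2 Cd7 cell with fewer than 10 UMIs of the 11 myeloid genes, CKO left of WT, with the number of cells with a UMI under each column. Xcl1 (112 of 162 CKO cells and 34 of 43 WT cells) and Kit (91 of 162 and 20 of 43) are spread over many cells, while a minority of CKO cells carries high Ifng (39 of 162) or Gzma (42 of 162) and 1 WT cell carries most WT Gzma.

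Type 1 genes, those of the interferon-gamma axis, had 4 of 12 members higher and 0 lower, where 9.13% and 2.91% of all genes were. Over all members 4 of 14 were higher and 1 (Eomes) lower, where 13.7% and 3.64% of all genes were. Beside Ifng the 4 of 12 were Irf8, an interferon regulatory factor, at 431 CPM in CKO and 142 CPM in WT members (1.60, 1.13 to 2.11), and the 2 chains of the IL-18 receptor, Il18r1 (1.29, 0.33 to 2.41) and Il18rap (1.18, 0.45 to 1.98). NK receptors had 7 of 20 higher and 0 lower over a median of 0.46, including Klrb1b with 83 UMIs in CKO and 1 in WT members (4.90, 2.38 to 10.22), Klre1 at 176 and 55.4 CPM (1.67, 0.92 to 2.51) and Klrc1, an inhibitory NKG2 receptor, at 121 and 55.4 CPM (1.13, 0.35 to 1.99). The shares over all genes were again 9.13% higher and 2.91% lower. Over all members 4 of 21 NK receptors were higher and 1 lower, near the 13.7% and 3.64% of all genes. Klrk1 had 136 CPM in CKO and 239 CPM in WT members (-0.81, -1.26 to -0.36).

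Of 8 genes that mark cells in G2 or mitosis, 7 were higher in CKO members and 0 lower, with a median of 2.68, where 9.13% of all genes were higher. Over all members 7 of 9 were higher, where 13.7% of all genes were. Mki67 had 103 UMIs in CKO and 0 in WT members, Top2a 85 and 3, and Birc5 (survivin) 38 and 1. Mki67 or Top2a was found in 27 of 162 CKO members (16.7%, 11.3 to 23.3%) and 3 of 43 WT members (6.98%, 1.46 to 19.1%), which are overlapping shares. In the top CKO cell 59 of 188 such UMIs were counted. Stmn1, a microtubule regulator of dividing cells, had 121 UMIs in CKO and 2 in WT members (4.44, 2.56 to 7.51). The S phase list had 0 of 9 genes past 2-fold in either direction, with a median of 0.46. In other T cells 12 of 20 G2 and M genes were higher, with a median of 1.20, where 5.94% of all genes were higher.

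Lower genes in CKO members came from several lists. Cd69, a tissue retention and activation marker, was at 284 CPM in CKO and 609.5 CPM in WT members (-1.10, -1.39 to -0.81), Fos at 202 and 499 CPM (-1.30, -1.64 to -0.97), and Klf2, a factor of quiescent T cells, at 64.8 and 173 CPM (-1.42, -2.01 to -0.83). Of 20 immediate early genes, however, 2 were lower and 1 (Egr1) higher, where 2.91% and 9.13% of all genes were, and the list median was -0.16. Epas1, encoding a hypoxia-inducible factor, was at 29.9 CPM in CKO and 104 CPM in WT members (-1.80, -2.63 to -0.97), and Cyp51, an enzyme of cholesterol synthesis, at 51.1 and 149 CPM (-1.54, -2.20 to -0.89). Kcnq1ot1, a long non-coding RNA, was at 113 and 287 CPM (-1.34, -1.79 to -0.89) against a log2 ratio of 0.00 in other T cells. Of its 83 WT UMIs 30 lay in 1 cell, and over all members its log2 ratio was -1.41, or -0.88 without each library's top cell. It overlaps Kcnq1 on the opposite strand, and whether strand was used in counting is not given in the labels. Of 25 interferon-stimulated genes, 4 were lower (Ifit1, Ifit2, Oasl2, Bst2) and 1 higher (Gbp5), where 2.91% and 9.13% of all genes were. Over all members 2 were lower and 5 higher, where 3.64% and 13.7% of all genes were. Ifit1 had 41 UMIs in CKO and 55 in WT members, of which 23 lay in 1 WT cell. For type 2 genes, 3 of 4 were lower, where 2.91% of all genes were. Il5, Il13 and Areg in WT members, however, came from very few cells: Areg had 89 UMIs, all in 1 cell. Il1rl1, Il17rb, Il5 or Il13 was found in 4 of 162 CKO members and 5 of 43 WT members.

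**Figure D5:**
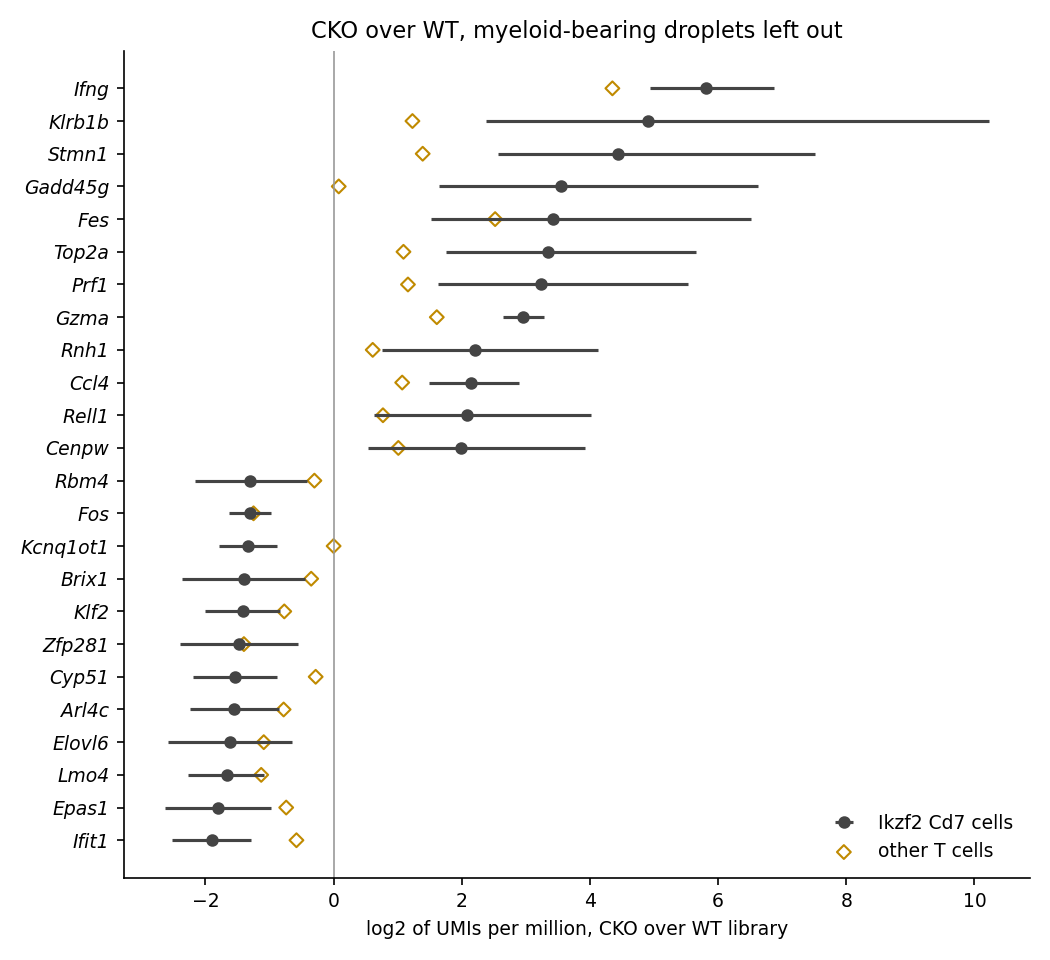
Log2 ratio of CPM in the CKO over the WT library (horizontal axis) for 24 genes named by rule in Ikzf2 Cd7 cells without myeloid-bearing droplets, with 95% intervals as bars, and the same ratio in other T cells as hollow diamonds. Ifng is at 5.81 in Ikzf2 Cd7 cells and 4.35 in other T cells, and the wide bars of Klrb1b, Stmn1, Gadd45g and Fes rest on 1 or 2 WT UMIs.

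Since the receptor classes differed between the libraries, the levels were read again within each class, where WT numbers were small. Among cells with Trdc and no Trac (76 CKO, 7 WT), Ifng had 482 UMIs in 19 CKO cells and 3 UMIs in 1 WT cell, and Gzmb 285 UMIs in 36 CKO cells and 5 UMIs in 1 WT cell. These WT levels rest on a single cell, and 3 CKO cells held 390 of the Ifng UMIs. Gzma had 501 UMIs in 14 CKO cells, 304 of them in 3 cells, and 0 UMIs in WT cells. Kit was found in 71.1% of the 76 CKO cells and 28.6% of the 7 WT cells. Its level was 345 and 107 CPM (log2 1.70, 0.44 to 3.34, and 3.58 without each library's top cell), with 4 of its 5 WT UMIs in 1 cell. Klrd1 was at 432 and 149 CPM (1.53, 0.46 to 2.87), with 6 of its 7 WT UMIs in 1 cell. Xcl1 was at 979 and 1236 CPM (-0.34, -0.74 to 0.09). Among cells with Trac and no Trdc (18 CKO, 22 WT), Gzma was found in 22.2% of CKO cells and 22.7% of WT cells, with 254 and 8 UMIs. Of the CKO UMIs 250 lay in 3 cells, and the log2 ratio of the levels was 5.72 without each library's top cell. Gzmb had 40 UMIs in 8 CKO cells and 26 in 5 WT cells, with 33 of the CKO UMIs in 3 cells. Kit did not differ beyond counting error in level here, at 63.3 and 105 CPM (-0.73, -2.53 to 0.77), with 4 of its 5 CKO UMIs in 1 cell. It was found in 11.1% of these CKO cells and 40.9% of these WT cells. Klrd1 was lower in CKO, at 266 and 489 CPM (-0.88, -1.65 to -0.17), as was Xcl1, at 431 and 872 CPM (-1.02, -1.60 to -0.47). Among cells with neither (46 CKO, 9 WT), Ifng had 840 UMIs in 14 CKO cells, 465 of them in 1 cell, and 5 UMIs in 1 WT cell. Gzma had 982 UMIs in 20 CKO cells, 600 of them in 3 cells, and 78 UMIs in 2 WT cells, 75 of them in 1 cell. Gzmb was at 964 and 842 CPM there (0.19, -0.29 to 0.71), but 26 of its 42 WT UMIs lay in 1 cell, and the log2 ratio was 1.04 without each library's top cell. Kit was at 358 and 221 CPM there (0.70, -0.23 to 1.76). Klrd1 was at 571 and 321 CPM (0.83, 0.07 to 1.69), and Xcl1 at 1853 and 1645 CPM (0.17, -0.18 to 0.54).

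Some transcripts of innate lymphocytes were found in the class with neither Trdc nor Trac. Ncr1, the NKp46 receptor of innate lymphocytes, was found in 17.4% of its CKO cells and 11.1% of its WT cells, against 3.95% and 0% of cells with Trdc alone and 5.56% and 4.55% of cells with Trac alone, where the single WT cell had 4 UMIs. Il1rl1, the IL-33 receptor of group 2 innate lymphocytes, was found in 4.35% of its 46 CKO cells and 33.3% of its 9 WT cells, and Gata3 was at 124 CPM in those CKO cells and 481 CPM in those WT cells, with 16 of the 24 WT UMIs in 1 cell. Its Fcer1g level was 1247 CPM in CKO and 461 CPM in WT, where 13 of 23 UMIs lay in 1 cell. Cells with Trdc alone had 602 and 469 CPM, and cells with Trac alone 443 and 569 CPM. The level was thus above the other classes in CKO but not in WT. The part of innate lymphocytes with Cd3g transcripts in the results above was not tested.

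The necroptosis and death genes, which the study addresses, were thinly read in these cells. Of 13 genes 2 were higher in CKO members, Traf2 (1.16, -0.22 to 2.88) and Birc3 (1.09, 0.27 to 2.03), and 0 lower, with a list median of 0.14. The interval of Traf2 includes 0, and 2 of 13 is near the 9.13% of all genes that were higher. Over all members 4 of 16 were higher (Ripk3, Cflar, Gsdmd and Birc3), where 13.7% of all genes were. Ripk3 had 10 UMIs in CKO and 1 in WT members, Mlkl 4 and 1, Ripk1 30 and 14, Casp8 57 and 11, and Zbp1 111 and 35 (log2 0.19, -0.37 to 0.78). Differences in Ripk3 and Mlkl were not detectable at this depth. Of 7 p53 target genes 1 was higher, Sesn1, with 28 UMIs in CKO and 2 in WT members (2.33, 0.35 to 5.45), and 0 lower, also near the share over all genes.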

How the data were processed

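The deposited matrices hold UMI counts per gene and barcode, whole and not normalized. Reads were processed with Cell Ranger 5.0.0 and Seurat 3.2.3 on mm10, per the submitters' processing notes, while the matrix header names Cell Ranger 6.0.1. Barcodes with at least 200 genes and at most 20% mitochondrial UMIs were kept. UMIs of the chosen cells were summed per library and given as CPM. A gene was counted as higher or lower at a 2-fold ratio with 50 UMIs over both libraries (20 for list genes, and 20 in each library for contrasts between populations). Against 0 UMIs a bound was set at 3 UMIs over the population. Genes named between libraries were the 12 largest and 12 smallest log2 ratios among genes with 40 UMIs, in 10% of members of the higher library, at no less than 0.5 of the level over all cells; ribosomal, mitochondrial, receptor segment, sex-linked and rule genes were left out. Against other T cells, genes were ranked by the smaller of the 2 libraries' differences, and against other populations 6 each way were named. Of 506 list genes, 502 matched. Doublets were marked with Scrublet in scanpy 1.11.5, which marked 3 CKO members and 0 WT members. Of the 31 CKO droplets with myeloid transcripts it marked 2, so these were left out as an added alternative. Steps were tested on simulated data. The members, lists and thresholds were chosen with earlier results of these data known. Python 3.11.15, numpy 2.4.6, scipy 1.17.1 and GENCODE vM21 (GRCm38) coordinates were used.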

Additional observations from a re-analysis of the deposited data

Results flagged for a closer look

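Sh2d1b1, which encodes the SLAM adaptor EAT-2 of innate lymphocytes, moved in opposite directions in the 2 populations, and this difference was not tested. In Ikzf2 Cd7 cells without myeloid-bearing droplets its log2 CKO over WT ratio was -1.35 (-2.66 to -0.03), with 12 UMIs in CKO and 11 in WT, and in other T cells it was 2.90 (1.22 to 5.25), with 31 UMIs in CKO and 3 in WT.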

How the results depend on the processing

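No paired analysis was possible because each group has 1 library and the labels give no replicate numbers. Allowing cells with 1 UMI of Ikzf2 and Cd7 gave a member share of 26.2% in CKO, allowing Cd8a or Cd8b1 gave 34.2% in CKO and 22.5% in WT, and allowing Cd163l1, Trdv4 or Il17a gave 29.3% in CKO and raised Trdc without Trac to 57.3% of CKO members. With all retained cells as denominator the shares were 1.73% in CKO and 1.5% in WT. Genes at least 2-fold higher and lower in CKO numbered 160 and 34 without the myeloid-bearing droplets, 62 and 10 of 646 after thinning to 1000 UMIs, 890 and 237 at 20 UMIs per gene, 1262 and 710 at 1 UMI per gene, and 779 and 345 at 1.5-fold. Leaving out each gene's top cell gave 21 lower. The median of type 2 genes turned to 2.27 without each gene's top cell (2 genes) and to 0.12 after thinning (1 gene). These medians rest on fewer genes; the cause of the other moves was not tested. Scaling by the median of gene ratios and by TMM shifted log2 ratios through offsets of 0.04 and -0.05, and the counts moved by less than 1.5 times. After thinning, the log2 ratio of Ifng was 3.92, with 264 UMIs in CKO and 4 in WT. Of the values of named genes under alternatives, 564 stayed inside the interval of the gene's main ratio and 66 fell outside it. Where that interval is wide, a value inside it can still lie far from the main ratio. Of the values past 2-fold, 0 changed sign. Of list medians, 439 moved by less than 1.5 times and 22 by more, beside the type 2 medians above. Leaving out a replicate was not run, since that leaves no library in a group. Depth limits the 44 WT members most.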
